A study of Mus musculus with 24 samples.

Results

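Messages of the tumour necrosis factor (TNF) ligands and their receptors were measured in 4 kinds of activated immune cells of wild-type (WT) and miR-155 knockout (KO) mice: macrophages, dendritic cells, B cells and CD4 T cells. Members were chosen by name alone. They were all symbols in the count files that begin with Tnfsf or Tnfrsf, together with Tnf, Lta, Ltb, Ltbr, Cd40, Cd40lg, Fas, Fasl, Cd27, Cd70 and Eda2r. This gave 43 of 20673 genes, 18 of them ligands and 25 receptors.

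The study asked how cellular context shapes gene regulation by miR-155, a microRNA that activated immune cells make. It holds 24 RNA-seq libraries, 3 for each genotype in each of the 4 cell types, and its design text describes the 3 as sequencing replicates without naming separate animals. The p-values therefore speak only of how these libraries vary, and part or all of that may be technical. All mice were C57BL/6J. Every cell type had been activated in culture, so no resting cells stand beside these values, and cell type and stimulus cannot be told apart. B cells came from spleen by removal of CD43+ cells and received lipopolysaccharide (LPS) at 25 ug/ml with IL-4 at 6.5 ng/ml. Dendritic cells were splenic CD11c+ cells of animals bearing a B16 melanoma that expresses Flt3 ligand, and received LPS at 100 ng/ml with GM-CSF at 20 ng/ml. Macrophages were thioglycollate-elicited peritoneal cells given LPS at 100 ng/ml. CD4 T cells were CD4+CD25-CD44- cells of lymph node and spleen, activated with beads that engage CD3 and CD28. The miR-155 host gene is not among the file symbols, so the KO label was not checked on its target.

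TNF ligands are mostly membrane proteins that act as trimers on a neighbouring cell or, once cut from the membrane, at a distance. Their receptors fall into those with a death domain, such as TNFR1, Fas and DR5, which can start cell death, and those that recruit TRAF adaptors and switch on NF-kB, such as CD40, OX40 and 4-1BB. Soluble or truncated decoys, among them osteoprotegerin, bind ligand without signalling. In lymphocytes and dendritic cells many of these pairs are costimulatory, and TNF itself is a main inflammatory product of LPS-stimulated macrophages.

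The miR-155-5p sequence is shown because its seed decides which member messages could pair with the missing microRNA. The RefSeq sequence (GRCm38.p6, chr16:84714143-84714165, plus strand) is 23 bases long, with bases 2 to 8, the seed, in capitals.
miR-155-5p: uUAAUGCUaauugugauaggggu
For each gene only the longest 3′ UTR of its protein-coding transcripts in the GENCODE M21 annotation (GRCm38) was searched, so matches in other transcripts alone would be missed. The search ran on the transcript strand for AGCATTAA (an 8mer), AGCATTA or GCATTAA (7mers) and GCATTA (a 6mer). Each shorter form was counted only where no longer one covers it. A 7mer or 8mer was found in 7 of the 43 members, or 16.3%, against 12.8% of the 19461 genes with an annotated 3′ UTR. One further member, Tnfrsf4, held a 6mer only, and 35 held none of these letters. A match is a description of sequence and not a measured site. The match of each of the 7 members is shown 5′ to 3′ on the transcript strand, with the matched letters in capitals, so that it can be set beside the member's values.
Tnfsf9: ataattcactagatAGCATTAgtaaactg
Tnfrsf11a: tcaaaagtgctaagAGCATTAAgaatctac
Tnfrsf10b: ttggacacagagggAGCATTAAgtgctacc
Tnfrsf13b: aatgaccggcacctAGCATTAcccttaca
Tnfrsf26: gtcaacctgtcttaAGCATTAttgtacat
Tnfrsf22: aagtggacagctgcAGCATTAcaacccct
Eda2r: cctggtctcctgtaAGCATTAtcaaatgt
In the order of the lines, the windows lie in 3′ UTRs at chr17:57107650-57107678 (plus strand), chr1:105847725-105847754 (plus), chr14:69783236-69783265 (plus), chr11:61147874-61147902 (plus), chr7:143608401-143608429 (minus), chr7:143636325-143636353 (minus) and chrX:97334897-97334925 (minus). Tnfrsf11a also held a 6mer nearer its stop codon. The Tnfrsf22 and Eda2r matches are each in the 3′ UTR of 1 annotated transcript only, of 3 and of 2.

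Depth ran from 7428821 to 14219823 counts over genes per library, lowest in dendritic cells. Values are counts per 1000000 counts of the library (CPM) on 1 scale for all 24 libraries. Levels of different genes are compared only as CPM per kb of coding sequence, because the counts cover coding sequence. Marker sums were highest in the cell type they mark, though not every marker was. Summed B-cell markers reached 3600 to 3790 CPM in WT B cells, dendritic-cell markers 11500 to 12300 in WT dendritic cells, macrophage markers 16700 to 18000 in WT macrophages and T-cell markers 2230 to 2340 in WT CD4 T cells. Among the dendritic-cell markers, Flt3, Ccr7 and Fscn1 were high, while Xcr1 and Clec9a were low (1.68 and 5.63 CPM in WT). Itgax, which encodes the CD11c used to select these cells, was 31.4 CPM in WT dendritic cells and higher, 263 CPM, in WT macrophages. The WT macrophage libraries spread most. Their chi-square per gene was 39.2 for replicates 1 and 2, 65.8 for 1 and 3 and 161 for 2 and 3, while no pair of another group passed 15.9. Replicate 3 was the farther from replicate 1, but all 3 differed widely. Values without WT macrophage replicate 3 are given beside the macrophage KO results named for it.

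In WT cells each cell type carried its own set of ligands and receptors. Of the 43 members, 39 had enough counts to be tested across the 12 WT libraries, and all 39 differed between cell types (edgeR quasi-likelihood test, adjusted p under 0.05). So did 97.1% of all genes tested, so the count of 39 says little about the family itself. The highest cell type was called above the next for 34 of the 39. B cells were highest for 4 members, dendritic cells for 9, macrophages for 13 and CD4 T cells for 13.

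**Figure D1:**
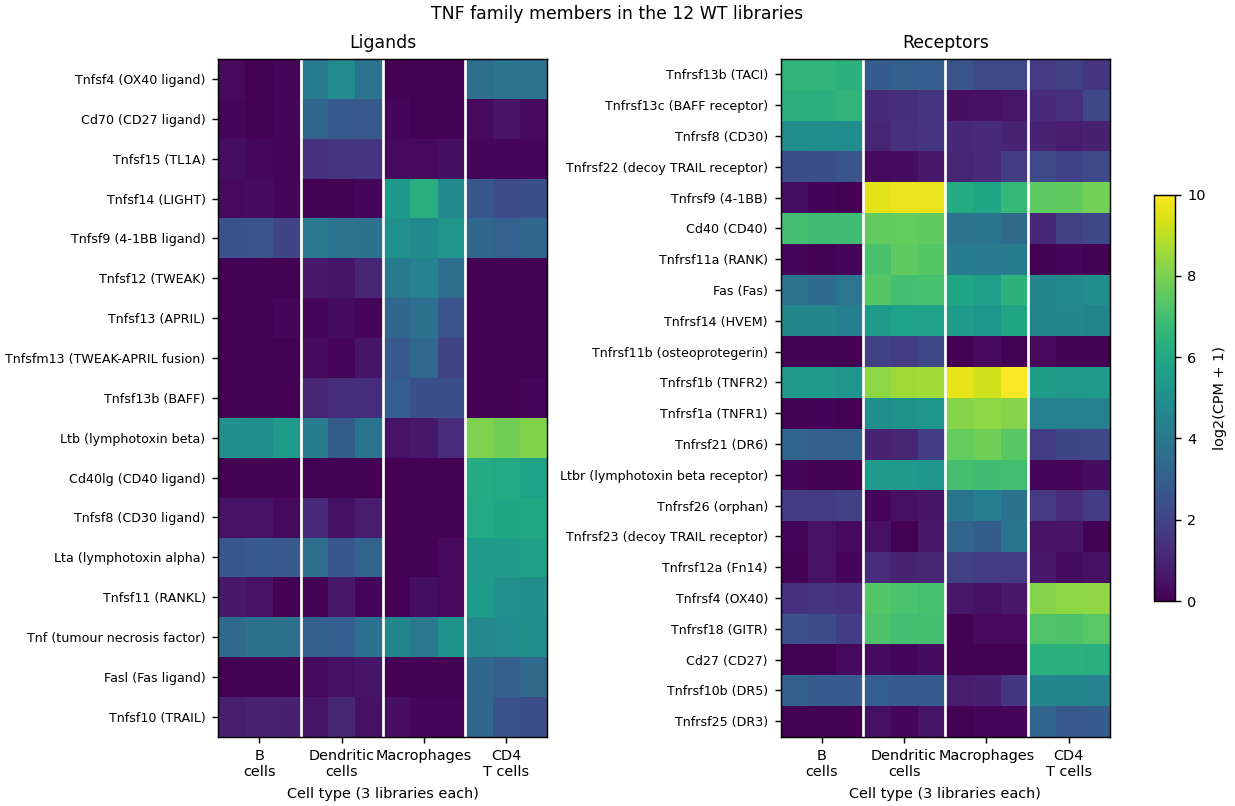
Heatmap of log2(CPM + 1) for the 39 tested members in the 12 WT libraries, ligands on the left and receptors on the right, 3 columns per cell type and members grouped by the cell type with the highest mean. B cells are highest for 4 members, dendritic cells for 9, macrophages for 13 and CD4 T cells for 13.

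CD4 T cells were highest for more of the ligands than any other cell type. Cd40lg, the CD40 ligand of helper T cells, stood at 69.7, 65.7 and 55.5 CPM in the 3 WT T-cell libraries and had no count in any library of the other cell types. A count of 0 allows up to 3 counts, or 0.404 CPM in the shallowest library, by counting error alone. Ltb, the membrane partner of lymphotoxin alpha, reached 258 ± 25.7 CPM (SD, n = 3) in T cells and 35.9 ± 8.24 in B cells, the next cell type. Per kb of coding sequence Ltb was the highest ligand of both T cells (281 CPM per kb) and B cells (39.1). In T cells it was followed by Tnfsf8, the CD30 ligand (87.1 CPM per kb), and Cd40lg (81.6). Tnfsf11 (RANKL), Fasl (the Fas ligand), Tnfsf10 (TRAIL) and Lta were also highest in T cells, Lta at 45.6 ± 5.4 CPM against 8.19 ± 2.92 in dendritic cells. Tnf was present in all 4 cell types. WT T cells held 27.1 ± 2.45 CPM and WT macrophages 24 ± 9.37, a log2 difference of 0.17 that missed the threshold (adjusted p = 0.52), and B cells held 11.3 ± 1.23 and dendritic cells 8.89 ± 2.78.

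The leading receptors of T cells are costimulatory. Tnfrsf4 (OX40) led with 379 CPM per kb, followed by Tnfrsf9 (4-1BB) at 266 and Tnfrsf18 (GITR) at 168. Cd27, a costimulator of naive T cells, was 81.2 ± 3.45 CPM in T cells and at most 0.202 CPM on average elsewhere. Tnfrsf10b (DR5, a TRAIL receptor) and Tnfrsf25 (DR3) were highest in T cells as well. B cells, by contrast, were led by receptors of the survival factor BAFF and by CD40. Tnfrsf13c (the BAFF receptor) reached 136 CPM per kb, Cd40 reached 126 and Tnfrsf13b (TACI) reached 121. Tnfrsf8 (CD30) was also a B-cell message, at 29.2 ± 0.663 CPM against 1.54 ± 0.421 in dendritic cells. The ligands of these BAFF-binding receptors were near 0 in the same cells: Tnfsf13b (BAFF) had no count in the WT B-cell libraries and Tnfsf13 (APRIL) had 1 count in all.

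Dendritic cells were set apart by Tnfrsf9 (4-1BB), which at 1060 CPM per kb was the highest receptor of any WT cell type, 4-fold above T cells in CPM. Tnfrsf1b (TNFR2, 257 CPM per kb) and Cd40 (196) followed. Tnfrsf11a (RANK), the receptor for RANKL, stood at 164 ± 23 CPM in dendritic cells and 16.5 ± 1.38 in macrophages, with 2 counts over the WT B-cell libraries and 1 over the WT T-cell libraries. Their ligands were low: Tnfsf4 (OX40 ligand) led at 31.7 CPM per kb, then Tnfsf9 (4-1BB ligand) at 14.7 and Ltb at 13.8. Tnfsf4 was 18.8 ± 7.46 CPM in dendritic cells and 12.4 ± 1.43 in T cells, a log2 difference of 0.61 that missed the threshold (adjusted p = 0.058) and passed it with RLE size factors (0.69, 0.036). Cd70, the CD27 ligand, Tnfsf15 (TL1A) and Tnfrsf11b (osteoprotegerin) were highest in dendritic cells too, at 6.89, 1.86 and 2.92 CPM.

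Macrophages were highest for both TNF receptors. Tnfrsf1b (TNFR2) reached 822 ± 202 CPM and Tnfrsf1a (TNFR1, the death-domain receptor) 297 ± 16.6, or 578 and 203 CPM per kb. Ltbr, the lymphotoxin beta receptor, followed with 101 CPM per kb, and Tnfrsf21 (DR6) with 99. Tnfrsf1a had 1 count in the 3 WT B-cell libraries together, and Ltbr also had 1. Macrophage ligands were led by Tnfsf14 (LIGHT, 66.2 CPM per kb), Tnf (34) and Tnfsf9 (33.8). The spread of Tnfsf14 was wide, 47.5 ± 27.1 CPM. Tnfsf13b (BAFF), Tnfsf12 (TWEAK), Tnfsf13 (APRIL) and Tnfsfm13 (a TWEAK-APRIL fusion) were macrophage messages, but the last 3 share most of their coding bases (636 of 792 in Tnfsf12 and 591 of 720 in Tnfsf13), so their separate values are uncertain. Tnfrsf22, Tnfrsf23 and Tnfrsf26 are neighbouring paralogs on chromosome 7 that share no annotated coding bases. How the counting treated reads that fit more than 1 paralog is not known, so their values are uncertain too.

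The order of these levels rests on a scaling between unlike cell types. Scaling by library totals in place of TMM moved the median gene's difference between macrophages and T cells from 0.0304 to -0.605 (log2) and reversed none of the orders between highest and second cell type. Under it, 3 orders that had missed the threshold passed it, namely T cells above macrophages for Tnf (log2 difference 0.82, adjusted p = 0.0098), dendritic cells above macrophages for Tnfrsf14 (0.55, 0.0055) and T cells above dendritic cells for Tnfrsf18 (0.46, 0.0089). Macrophages above dendritic cells for Tnfrsf12a missed it (0.64, 0.16).

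The main question was what changed in KO cells. The members that passed the filter on low counts numbered 28 for CD4 T cells, 23 for macrophages, 21 for dendritic cells and 17 for B cells. The other 15, 20, 22 and 26 members were too low to test, and 4 members (Eda2r, Tnfrsf17, Tnfrsf19 and Tnfsf18) were too low everywhere. In dendritic cells 10 members were called, 4 higher and 6 lower in KO, or 47.6% of the 21 tested against 21.6% of all genes tested there (12.2% higher, 9.42% lower). B cells had 3 called members, 1 higher and 2 lower (17.6% of those tested), against 3.2% of all genes (2.09% higher, 1.11% lower). CD4 T cells had 3, all lower (10.7%), against 2.15% of all genes (1.35% higher, 0.798% lower). Macrophages had 1, higher (4.35%), against 0.885% of all genes (0.55% higher, 0.336% lower). Members pass the filter through the group in which they are high, and they are few, so these shares describe the members and were not tested. In all, 13 members were called in at least 1 cell type, 3 of them in more than 1 (Cd40, Lta and Tnf), and none was higher in 1 cell type and lower in another.

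**Figure D2:**
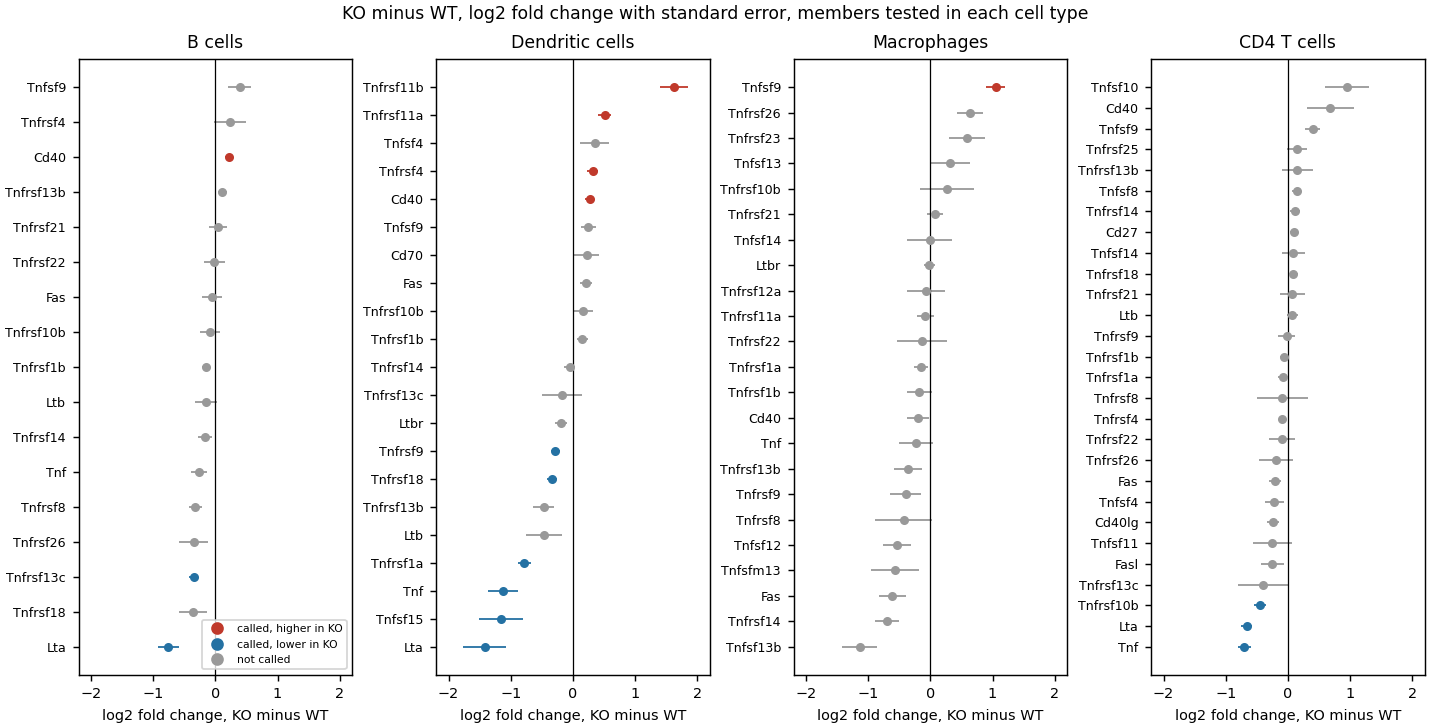
Log2 fold change, KO minus WT, with its standard error for each member tested in each cell type, ordered by size. Red members were called higher in KO and blue ones lower: 10 for dendritic cells, 3 each for B cells and CD4 T cells, and 1 for macrophages.

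The median log2 fold change of the tested members was -0.15 for B cells, -0.0492 for dendritic cells, -0.154 for macrophages and -0.0717 for T cells, beside -0.00235, -0.0112, -0.0201 and -0.00116 for all genes. Median absolute changes of the members were 0.217, 0.325, 0.319 and 0.152, beside 0.0913, 0.211, 0.19 and 0.0945.

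Among the ligands, Lta and Tnf were lower in KO cells. Lta encodes lymphotoxin alpha, a soluble ligand of both TNF receptors, and lies next to Tnf and Ltb on chromosome 17. In B cells the WT libraries held 5.61, 6.27 and 5.85 CPM of Lta and the KO libraries 3.23, 3.21 and 4.09. In dendritic cells they held 11.1, 5.31 and 8.1 in WT and 4.24, 3.29 and 1.56 in KO. In CD4 T cells they held 40.2, 45.5 and 51 in WT and 25.7, 30.6 and 29.9 in KO. Every KO library was below every WT library in these 3 cell types. Lta fell by 0.76 (log2) in B cells (SE 0.17, adjusted p = 0.021), by 1.42 in dendritic cells (SE 0.35, 0.017) and by 0.66 in T cells (SE 0.09, 0.0045). It was one of 3 genes called lower in all 3 of these cell types, of 9195 tested in all of them (0.0326%). These cell types and this direction are those of Lta's own calls, so the share is a description and no test. The fall of Lta was not shown to differ between cell types (adjusted p = 0.39). Macrophages had 2 Lta counts in WT and 3 in KO, too few to test.

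The Lta calls differed in how far 1 library decided them. In T cells the call held in each of the 6 fits that left out 1 library (adjusted p 0.00048 to 0.043). In dendritic cells it was lost without KO replicate 2 (0.059) or KO replicate 3 (0.058). In B cells the same happened without WT replicates 1 (0.065) or 2 (0.11) and without KO replicates 1 (0.075) or 2 (0.094), and DESeq2 gave an adjusted p of 0.096.

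Tnf, the prototype inflammatory ligand, was lower in KO dendritic cells and KO T cells. WT dendritic cells held 7.59, 7 and 12.1 CPM and KO dendritic cells 3.84, 4.38 and 3.98, with no overlap, so that Tnf fell by 1.12 (SE 0.24, adjusted p = 0.0079). WT T cells held 24.8, 27 and 29.7 CPM and KO T cells 16.2, 19.7 and 14.3, again with no overlap, and Tnf fell by 0.70 (SE 0.11, adjusted p = 0.011). The dendritic-cell call held without each library in turn (adjusted p up to 0.04). The T-cell call was lost without WT replicate 2 and without KO replicates 1 or 3 (adjusted p up to 0.092). In the other 2 cell types the libraries overlapped. B cells held 9.83, 12 and 11.9 CPM in WT against 8.5, 9.38 and 10.5 in KO (log2 -0.26, SE 0.13, adjusted p = 0.33). Macrophages held 23.1, 15.1 and 33.8 in WT against 18.5, 19.8 and 22.3 in KO (-0.23, SE 0.28, 0.70), which became 0.11 without WT replicate 3. The difference between cell types missed the threshold (adjusted p = 0.21). Ltb, the third gene of the cluster, was not called in any cell type: its log2 change was -0.15 (SE 0.17) in B cells, -0.47 (SE 0.29) in dendritic cells and 0.07 (SE 0.09) in T cells. Single libraries moved the dendritic-cell value of Ltb: it was -0.77 and passed the threshold without WT replicate 2 (adjusted p = 0.0056), and was -0.16 without WT replicate 1 (0.68).

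**Figure D3:**
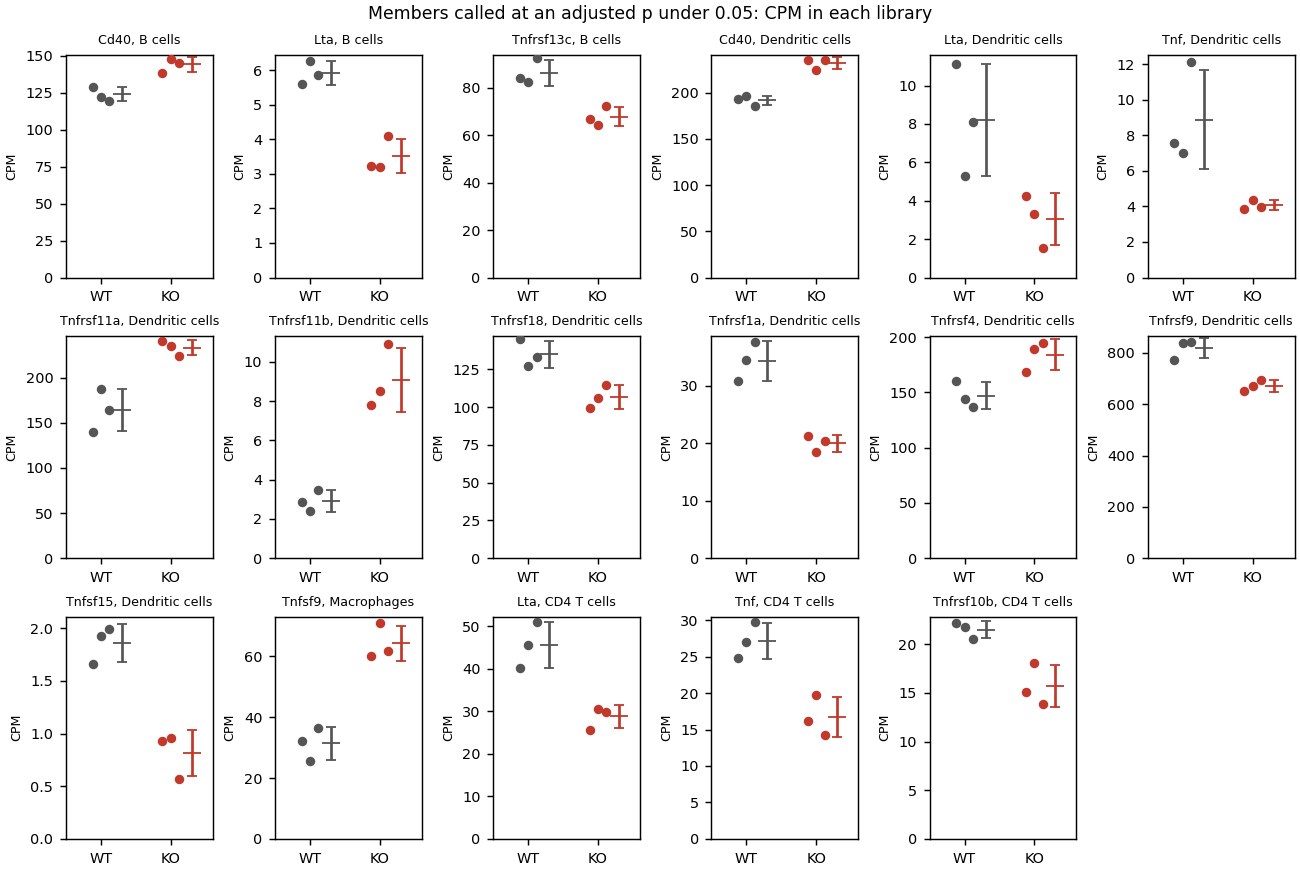
CPM in each library for the 17 pairs of member and cell type called at an adjusted p under 0.05. Grey points are WT libraries and red points KO libraries, the cross bars are mean ± SD (n = 3), and in each panel no KO library overlaps the WT libraries.

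Tnfsf9, the ligand of 4-1BB and the ligand with an AGCATTA match in its 3′ UTR (printed above), was higher in KO macrophages. The WT macrophage libraries held 32.1, 25.7 and 36.3 CPM and the KO libraries 60.2, 70.8 and 61.6 without overlap. The log2 difference was 1.05 (SE 0.15, adjusted p = 0.041). With the replicate number as a block, since same-numbered macrophage libraries deviated together, it was 1.06 (adjusted p = 0.027). The size was steady, from 0.92 to 1.18 without each library in turn, but the call was not. It was lost without WT replicate 1 and without any 1 KO library (adjusted p up to 0.2), and without WT replicate 3 the adjusted p was 0.0023.

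In the other cell types Tnfsf9 was not called, yet its libraries did not overlap there either. B cells held 4.72, 5.1 and 3.22 CPM in WT and 5.67, 5.24 and 6.41 in KO (log2 0.39, SE 0.18, adjusted p = 0.30). Dendritic cells held 14.9, 13.2 and 12.7 against 16, 15.6 and 17.1 (0.25, SE 0.12, 0.16). CD4 T cells held 9.09, 7.92 and 8.94 against 10.8, 11.2 and 12.3 (0.40, SE 0.12, 0.096). Of 8895 genes tested in all 4 cell types, 55 (0.618%) had every KO library above every WT library in each, and Tnfsf9 was the one member among them, of 8 members tested. This pattern was looked for after its values were seen. The KO effect on Tnfsf9 did differ in size between cell types (adjusted p = 0.017). It was 0.78 smaller in dendritic cells than in macrophages (SE 0.18, adjusted p = 0.0085), while macrophages minus T cells was 0.63 (SE 0.18, 0.06). The test between cell types missed its threshold without KO macrophage replicate 2 (0.065) and with the replicate block (0.051).

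**Figure D4:**
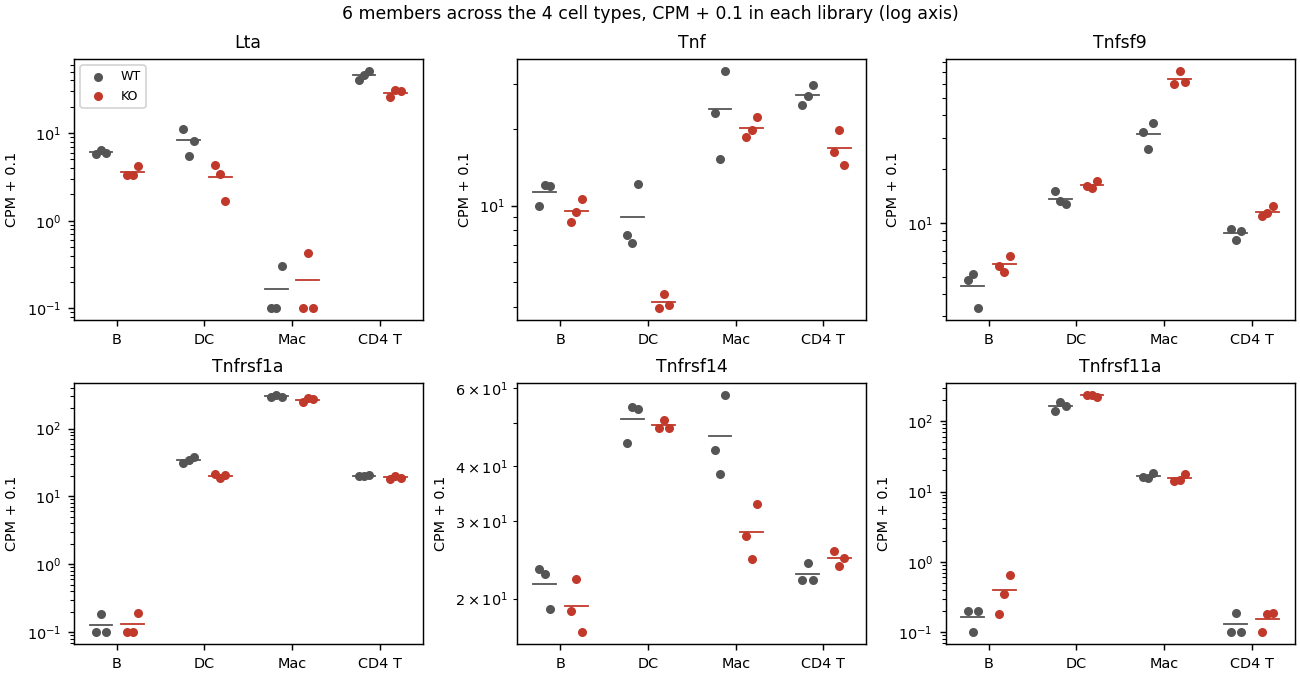
CPM + 0.1 on a log axis for Lta, Tnf, Tnfsf9, Tnfrsf1a, Tnfrsf14 and Tnfrsf11a in all 24 libraries (DC, dendritic cells; Mac, macrophages; points are libraries, lines are means, grey WT and red KO). Tnfsf9 KO libraries lie above WT in each cell type, and Lta KO libraries lie below WT in all but macrophages, where it is near 0.

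The last ligand called was Tnfsf15 (TL1A, the ligand of DR3), in dendritic cells. WT libraries held 1.66, 1.93 and 1.99 CPM and KO libraries 0.927, 0.959 and 0.568, low levels with no overlap, and it fell by 1.16 (SE 0.35, adjusted p = 0.036). The call was lost in 5 of the 6 fits that left out 1 library, all but the one without WT replicate 1 (adjusted p up to 0.14), and with DESeq2 (0.19). Of the T-cell ligands, Cd40lg held 69.7, 65.7 and 55.5 CPM in WT and 58.2, 50.3 and 53.3 in KO (log2 -0.24, SE 0.09, adjusted p = 0.17). Tnfsf10 (TRAIL) held 8.82, 4.7 and 4.25 in WT and 8.3 to 15.7 in KO (0.95, SE 0.36, 0.25). DESeq2 called Tnfsf10 (0.95, 0.035), as did edgeR without WT replicate 1 (1.36, 0.039). WT and KO libraries overlapped for both ligands.

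Receptors made up most of the calls in dendritic cells, as they did of the members tested there, and the receptor calls went both ways. Tnfrsf11b (osteoprotegerin, the soluble decoy of RANKL) was the largest rise: WT libraries held 2.85, 2.42 and 3.49 CPM and KO libraries 7.81, 8.49 and 10.9, a log2 difference of 1.63 (SE 0.22, adjusted p = 0.00059). Tnfrsf11a, the receptor of the same ligand and a holder of the AGCATTAA match above, held 140, 187 and 164 CPM in WT and 240, 235 and 224 in KO, and rose by 0.51 (SE 0.10, adjusted p = 0.0049). Both calls held without each library in turn (adjusted p up to 0.0048 and 0.03). RANKL itself (Tnfsf11) was too low to test in dendritic cells. In macrophages Tnfrsf11a was 16.5 ± 1.38 CPM in WT and 15.4 ± 1.94 in KO, a log2 change of -0.08 (SE 0.14), or 0.00 without WT replicate 3. The dendritic-cell effect minus the macrophage effect was 0.61 (SE 0.19, adjusted p = 0.041), although the test over all 4 cell types missed the threshold (0.063).

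Cd40 and Tnfrsf4, both costimulatory, were also higher in KO dendritic cells. Cd40 held 193, 196 and 186 CPM in WT and 235, 225 and 236 in KO (log2 0.27, SE 0.07, adjusted p = 0.018). In B cells it held 129, 122 and 119 in WT and 138, 148 and 145 in KO (0.22, SE 0.06, 0.046). Groups did not overlap in either cell type, but the shifts were small. The dendritic-cell call was lost without WT replicate 3 or any 1 KO library (adjusted p up to 0.086). The B-cell call was lost without KO replicate 2 or any 1 WT library (up to 0.2), and with DESeq2 (0.075). Tnfrsf4 (OX40) held 160, 144 and 137 CPM in WT dendritic cells and 168, 189 and 195 in KO (0.32, SE 0.09, adjusted p = 0.024), a call lost without WT replicate 3 and without KO replicates 2 or 3 (up to 0.11). In T cells, where Tnfrsf4 was higher still, it was 310 ± 14.8 CPM in WT and 291 ± 11.9 in KO (-0.09, SE 0.05, 0.31).

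Lower in KO dendritic cells were Tnfrsf1a, Tnfrsf18 and Tnfrsf9. Tnfrsf1a (TNFR1) held 30.8, 34.4 and 37.6 CPM in WT and 21.3, 18.4 and 20.3 in KO, and fell by 0.78 (SE 0.11, adjusted p = 0.00093), a call kept without each library in turn (up to 0.0087). Tnfrsf18 (GITR) held 145, 127 and 133 CPM against 99.2, 106 and 115, and fell by 0.34 (SE 0.08, 0.016). Its call was lost without KO replicate 1 or KO replicate 2 (up to 0.084). Tnfrsf9 (4-1BB), the most abundant receptor of these cells, held 774, 837 and 843 CPM against 650, 671 and 696, and fell by 0.28 (SE 0.07, 0.021). Its call was lost without WT replicate 3 or any 1 KO library (up to 0.1). No KO library overlapped a WT library for any of the 3. In T cells Tnfrsf9 was 204 ± 32.1 CPM in WT and 202 ± 20.7 in KO, and Tnfrsf18 was 159 ± 13.2 and 170 ± 11.3.

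Marker sums of several other cell types moved with the dendritic-cell genotype. The 8 macrophage markers summed to 112 to 291 CPM in the WT dendritic-cell libraries and 75.9 to 97.5 in KO, and all 8 had a higher mean in WT (exact permutation p of the sums 0.1, the smallest possible with 3 against 3). For scale, they summed to 16700 to 18000 CPM in WT macrophages. Neutrophil markers summed to 3.5 to 13.3 CPM in WT and 1.78 to 2.38 in KO. Nearly all of that sum was Csf3r (5.98 CPM in WT and 1.52 in KO), which stood at 666 CPM in WT macrophages. Ly6g was at 0 and the other neutrophil markers were near 0. Dendritic-cell markers summed to 11500 to 12300 in WT and 15000 to 15800 in KO, most of that rise being Fscn1 (5320 and 8440 CPM). Ccr7 was 4430 and 4790, Flt3 1490 and 1580, Zbtb46 170 and 175, and Batf3 109 and 114. Of the 9 markers, 3 had a higher mean in WT (Itgax, Xcr1 and Clec9a). B-cell markers were also higher in KO, from 6.52 to 12.2 CPM in WT to 13.6 to 24.6 in KO, with all 8 genes higher in KO. Stromal markers summed to 2.85 to 3.74 in WT and 0.795 to 1.28 in KO (exact permutation p 0.1 for each). For scale, B-cell markers summed to 3600 to 3790 CPM in WT B cells. The 3 leading receptors of WT macrophages per kb changed in KO dendritic cells by 0.15 (Tnfrsf1b), -0.78 (Tnfrsf1a) and -0.19 (Ltbr), and only Tnfrsf1a was called. Those of WT B cells changed by -0.17 (Tnfrsf13c), 0.27 (Cd40) and -0.47 (Tnfrsf13b), and only Cd40 was called. Of the ligands lower in KO dendritic cells, Tnf was at 24 CPM in WT macrophages, Lta at 0.068 and Tnfsf15 at 0.234. The part of the markers in these results was not tested. In bulk libraries fewer cells of a type and less message per cell cannot be told apart.

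The effect on Tnfrsf1a differed between cell types, the smallest adjusted p of any member in that test (0.01). It was 0.60 lower in dendritic cells than in macrophages (SE 0.14, adjusted p = 0.0074) and 0.70 lower than in T cells (SE 0.15, 0.0063). Macrophages held 289, 317 and 287 CPM in WT and 242, 278 and 272 in KO (log2 -0.15, SE 0.11, 0.51, and -0.17 without WT replicate 3), without overlap. T cells held 20, 19.8 and 20.3 in WT and 17.9, 20.2 and 18.7 in KO (-0.08, SE 0.08, 0.67). This call was kept without each of the 24 libraries in turn and with the replicate block. Over all members, 3 of 39 tested (7.69%) had a KO effect that differed between cell types, against 12.6% of all genes, a share no larger than the background.

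The third member, beside Tnfrsf1a and Tnfsf9, was Tnfrsf14 (HVEM, a receptor of LIGHT and of the inhibitory receptor BTLA; adjusted p = 0.019). In macrophages the WT libraries held 43.4, 38.3 and 57.9 CPM and the KO libraries 27.6, 24.5 and 32.6, without overlap, but the fit within macrophages missed the threshold (log2 -0.70, SE 0.19, adjusted p = 0.14). With the replicate block it passed (-0.69, 0.037), and without WT replicate 3 it also passed (-0.50, 0.03). In dendritic cells Tnfrsf14 held 45, 54.2 and 53.8 CPM in WT and 48.7, 50.6 and 48.7 in KO, and the effect there minus that in macrophages was 0.67 (SE 0.19, 0.024). T cells held 21.9, 24 and 22 in WT and 25.6, 23.6 and 24.6 in KO, and macrophages minus T cells was -0.84 (SE 0.19, 0.014). B cells held 23.2, 22.6 and 18.8 in WT and 18.7, 22.1 and 16.7 in KO. The difference between cell types was lost without KO macrophage replicate 1 (0.055) or 2 (0.074).

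Macrophage calls depended on single libraries. Without WT replicate 3, 6 members were called in place of 1 (Tnfsf9, Tnfrsf14, Tnfsf13b, Tnfrsf23, Tnfsf12 and Tnfsfm13), and 2746 genes in place of 95. Without WT replicate 2, 1 member was called, Tnfsf9, and 148 genes. Without WT replicate 1 or any 1 KO library, no member was called, and 0 or 1 gene in all. The fit with the replicate block called 2 members, Tnfsf9 and Tnfrsf14, and 265 genes. Tnfsf13b (BAFF) held 6.96, 4.41 and 4.28 CPM in WT macrophages and 2.75, 2.34 and 1.87 in KO, without overlap (log2 -1.14, SE 0.28, adjusted p = 0.11, and -1.25, 0.019 without WT replicate 3). Fas held 58.8, 49.7 and 87.9 in WT and 45.2, 41.1 and 41 in KO, also without overlap (-0.61, SE 0.21, 0.21, and -0.33, 0.052 without WT replicate 3). With the replicate block Tnfsf13b changed by -1.13 (adjusted p = 0.055) and Fas by -0.57 (0.15). Stromal and mesothelial markers summed to 165 to 417 CPM in WT macrophage libraries and 367 to 830 in KO, with overlap. The collagens among them were higher in KO (Col1a1 91.9 and 203 CPM), while Dcn was 41 and 42.3 and Pdgfrb 8.6 and 8.17. Macrophage markers summed to 16700 to 18000 in WT and 15100 to 16400 in KO, with 5 of the 8 higher in WT. C1qa was 1890 CPM in WT and 694 in KO, while Csf1r (3810 and 4170), Mertk and Mrc1 were higher in KO. Dendritic-cell markers summed to 230 to 321 CPM in WT and 354 to 437 in KO, nearly all of it Itgax (263 and 397 CPM), while 5 of these 9 markers had a higher mean in WT. Their part in these values was not tested.

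In B cells the clearest receptor call was Tnfrsf13c, the BAFF receptor that carries the survival signal of mature B cells. WT libraries held 84, 82.4 and 92.3 CPM and KO libraries 66.6, 64.4 and 72.2, without overlap, and it fell by 0.35 (SE 0.07, adjusted p = 0.0081). The call was lost only without KO replicate 2 (0.068) among the fits that left out 1 library, and DESeq2 also made it (0.0028). B-cell markers summed to 3600 to 3790 CPM in WT B cells and 3410 to 3700 in KO, and T-cell markers to 34.3 to 34.8 and 26.3 to 28.8. The T-cell sum in B cells was nearly all Lck (33.6 and 25.9 CPM), with Cd3g at 0, Cd3e and Cd4 at or near 0, and only 2 of the 8 genes higher in WT. Their part was not tested. The other BAFF-binding receptor, Tnfrsf13b (TACI), which holds an AGCATTA match, was 90.5 ± 6.37 CPM in WT B cells and 97.9 ± 7.26 in KO (log2 0.11, SE 0.07, adjusted p = 0.47). Tnfrsf8 (CD30) held 29.3, 29.8 and 28.5 CPM in WT B cells and 22.4, 20.4 and 27.5 in KO, without overlap but not called (-0.32, SE 0.10, 0.097).

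In CD4 T cells the receptor called was Tnfrsf10b (DR5), a death-domain receptor of TRAIL with an AGCATTAA match in its 3′ UTR. WT libraries held 22.2, 21.8 and 20.5 CPM and KO libraries 15.1, 18.1 and 13.9, without overlap, and it fell by 0.45 (SE 0.10, adjusted p = 0.041). The call was lost without WT replicate 2 and without KO replicates 1 or 3 (up to 0.19), and with DESeq2 (0.078). In the other cell types it was not called, at log2 changes of -0.09 (SE 0.16) in B cells, 0.16 (SE 0.16) in dendritic cells and 0.27 (SE 0.44) in macrophages, where it was 0.88 without WT replicate 3 (adjusted p = 0.12). B-cell markers in the T-cell libraries summed to 25.9 to 38.3 CPM in WT and 35.1 to 60.2 in KO, and T-cell markers to 2230 to 2340 and 2160 to 2200. Their part was not tested.

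The 7 members with a 7mer or 8mer match thus had no common direction. Tnfsf9 rose in macrophages, Tnfrsf11a rose in dendritic cells and Tnfrsf10b fell in T cells. Tnfrsf13b and Tnfrsf22 were called in none of the cell types in which they were tested. In dendritic cells Tnfrsf13b was 6.95 ± 0.491 CPM in WT and 5.02 ± 0.467 in KO, without overlap (log2 -0.47, SE 0.17, adjusted p = 0.079). The fit of all 24 libraries called that fall (adjusted p = 0.041). Tnfrsf26, an orphan receptor, held 13.4, 18.9 and 12.1 CPM in WT macrophages and 23.7, 26.7 and 17.9 in KO, with overlap (log2 0.64, SE 0.21, adjusted p = 0.19, and 0.51 without WT replicate 3), and -0.35 (SE 0.23) in B cells. Eda2r was too low to test anywhere. The other 10 members called in at least 1 cell type, Lta, Tnf and Tnfrsf13c among them, had no 7mer or 8mer match in the searched 3′ UTRs.

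Non-overlap of the 3 KO and 3 WT libraries was common among all genes, so it is no call by itself. It was seen for 7 of 17 tested B-cell members, 13 of 21 in dendritic cells, 6 of 23 in macrophages and 4 of 28 in T cells. For all genes tested the shares were 21.9%, 41.2%, 24.6% and 22.5%. Every KO library lay below every WT library in B, dendritic and T cells together for 52 of 9195 genes (0.566%), of which Lta was the one member among 13 tested. That pattern, too, has the cell types and direction of Lta's own values, so its share is no test.

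Genes that carry the signal from these receptors were read from 4 lists. The lists were chosen with earlier results of these data known, so their counts and directions are descriptions and no test. Among receptor adaptors and kinases, 12 of 32 tested genes were called in dendritic cells, 9 higher and 3 lower. Traf4, a TRAF family adaptor, fell by 0.99 (log2, SE 0.13, adjusted p = 0.00052), while Birc3 (cIAP2, a ubiquitin ligase bound to TRAF2) rose by 0.54 (SE 0.07, 0.00058), Tab2 (an adaptor of the kinase TAK1) by 0.53 (SE 0.08, 0.00095) and Map3k5 (ASK1) by 0.68 (SE 0.11, 0.0016). Tab2 also rose in B cells (0.52, SE 0.06, adjusted p = 0.00011) and CD4 T cells (0.49, SE 0.05, 0.00063). In macrophages its change was of similar size but was not called (0.57, SE 0.12, 0.081). B cells had 1 other call in this list, Birc3 (0.23, SE 0.05, 0.011), and T cells 1 other, Mlkl, the effector of necroptosis (0.50, SE 0.10, 0.032).

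Of 11 NF-kB subunits and inhibitors, 6 were called in dendritic cells, all higher in KO. The median of the list was 0.29 there. Rela rose by 0.44 (SE 0.07, adjusted p = 0.0013), Relb by 0.51 (SE 0.08, 0.0014), Bcl3 by 0.40 (SE 0.08, 0.0062) and Nfkb1 by 0.32 (SE 0.08, 0.015). None of the 11 was called in the other cell types with edgeR or DESeq2, although unadjusted p was under 0.05 for 1 in B cells, 4 in macrophages and 4 in T cells. In macrophages 4 were called without WT replicate 3, a fit that called 2746 genes in all. The medians there were 0.0476 for B cells, 0.00772 for macrophages and 0.0941 for T cells. Whether the list's changes differ between cell types was not tested.

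Of 12 genes for ligand shedding and message control, 3 were higher in dendritic cells. These were Zfp36 (tristetraprolin, which speeds decay of Tnf message; 0.54, SE 0.08, adjusted p = 0.001), Adam10 (a sheddase; 0.51, SE 0.09, 0.0033) and Zfp36l1 (0.29, SE 0.09, 0.035). In B cells Rhbdf1 (iRhom1, a partner of the TNF sheddase) rose by 0.76 (SE 0.12, 0.0018). Of the TNF-induced proteins, Tnfaip8l2 fell by 0.85 (SE 0.23, 0.022) in dendritic cells, 1 of 4 tested. No gene of the 4 lists was called in macrophages with edgeR. Over all genes 95 were called there (0.885%), against 547 with DESeq2 and 2746 without WT replicate 3, so the next counts moved with those of all genes. Among adaptors and kinases 8 of 31 had an unadjusted p under 0.05, DESeq2 called 3, and 11 were called without that library. For shedding and message control the counts were 4, 1 and 5 of 12, and for the TNF-induced proteins 4, 1 and 4 of 5. In T cells neither of these last 2 lists had a call with either tool, and 1 and 0 of their genes had an unadjusted p under 0.05. In B cells the TNF-induced proteins had no call with either tool and 0 genes at that level. The same shares of all genes as above stand behind the calls of the reported fits: 21.6% in dendritic cells, 3.2% in B cells, 2.15% in T cells and 0.885% in macrophages.

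**Figure D5:**
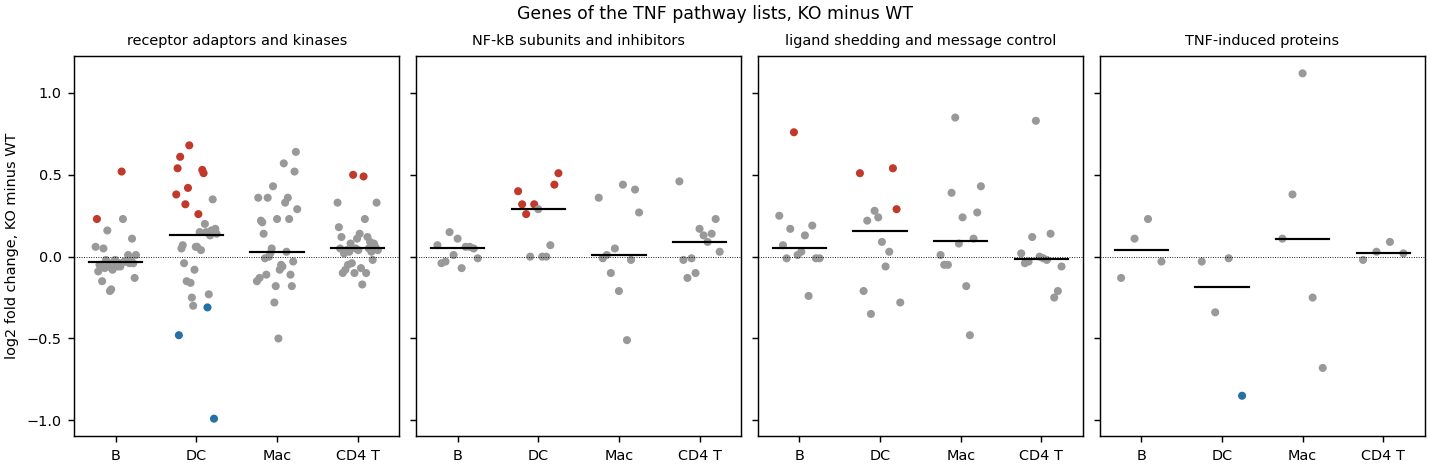
Log2 fold change, KO minus WT, of each tested gene of the 4 lists in each cell type (DC, dendritic cells; Mac, macrophages). Red points were called higher, blue points lower and grey points were not called; black lines are medians, which reach 0.29 for the NF-kB list in dendritic cells.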

How the data were processed

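Each of the 24 deposited files gives raw read counts (whole numbers) for 20673 gene symbols, made by the authors over coding sequence. Cutadapt, STAR and mm9 appear, without versions, in the submitters' processing notes. Which program counted the reads and how it treated strand is not given in the sources used here. Rows without a gene name hold 51.7 to 61.4% of a library's total and entered neither library sizes nor tests.

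KO was compared with WT within each cell type, 3 libraries a group, over all genes that passed filterByExpr, with TMM and edgeR's robust quasi-likelihood F test (edgeR 4.0.16, R 4.3.3) and Benjamini-Hochberg adjustment over all genes tested. A gene was called at an adjusted p under 0.05. Log2 fold changes are KO minus WT. One fit of 24 libraries tested whether KO effects differed between cell types, and one of the 12 WT libraries tested levels. Printed CPM use 1 TMM scale over 24 libraries. Alternatives were RLE size factors, other filters, DESeq2 1.42.0, leaving out each library, the replicate number as a block and 1 fit for all. Replicate pairs differed beyond counting noise (chi-square per gene 2.08 to 161), so each library counts once. The reported fits used no block in any cell type. Same-numbered KO and WT macrophage libraries deviated together (correlations 0.13, 0.3 and 0.39), so values with the replicate block are given beside some macrophage results. In the other cell types these correlations ran from -0.24 to 0.21. The script was tested on simulated data with a single fixed spread between replicates, so that test does not cover the wide spread of the WT macrophages.

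Members were taken by the name rule given at the start, and the lists were chosen with earlier results of these data known. Members called in a cell type, or with a KO effect that differed between cell types, are given by library. The others are given by means, ranges and counts. Other members with library values (Tnfsf13b, Fas, Tnfrsf26, Tnfrsf8, Cd40lg and Tnfsf10) were picked after their values were seen. Up to 4 called genes with the smallest p are named per list and cell type.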

Additional observations from a re-analysis of the deposited data

Results flagged for a closer look

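For 3 members the effect of miR-155 loss differed between the 4 cell types in the test of the difference itself (edgeR, 24 libraries), which is 7.69% of the 39 tested against 12.6% of all genes. The adjusted p was 0.01 for Tnfrsf1a, which fell by 0.78 (log2) in KO dendritic cells and changed by -0.15 in macrophages and -0.08 in T cells. It was 0.017 for Tnfsf9, which rose by 1.05 in macrophages and changed by 0.25 to 0.40 in the other cell types, and 0.051 with the replicate block. It was 0.019 for Tnfrsf14, which changed by -0.70 in macrophages and by -0.17, -0.05 and 0.12 in B cells, dendritic cells and T cells, and it missed the threshold without macrophage KO replicate 1 (0.055) or 2 (0.074). For Tnfsf9 it was 0.065 without macrophage KO replicate 2.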

How the results depend on the processing

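Counts of called members moved with the settings. In B cells (3 as reported) the count was 1 with DESeq2, 0 in 1 fit of all 24 libraries and 0 to 4 without each library in turn. In dendritic cells (10) it was 5 to 13 without each library, and 12 with no filter or a filter of 1 CPM in 3 libraries. Those 2 settings added Tnfrsf8 (38 counts in WT and 7 in KO) and Tnfsf13b (33 and 9), both lower in KO without overlap. The filter used for the reported fit had left both untested there, and the fit of all 24 libraries also called both. The KO effect on Tnfrsf8 in B cells minus that in dendritic cells was 1.90 (SE 0.51, adjusted p = 0.029). In macrophages (1) DESeq2 gave 3 and the fit of all 24 libraries 5, and it was 2 with the replicate block and 0 to 6 without each library. In CD4 T cells (3) the fit of all 24 libraries gave 0, and counts ran from 1 to 4 without each library. The members whose KO effect differed between cell types (3) numbered 8 with DESeq2 and 1 to 11 without each library. The 39 members that differed between WT cell types stayed within 1.5 times that count under every alternative run. The replicate block, outside macrophages, gave 4 called members in B cells (Tnfrsf8 added; WT numbers in the B-cell titles and file names differ, and the titles were used), 9 in dendritic cells (Tnfsf15 lost, adjusted p = 0.057), 3 in T cells and 3 between cell types, where Tnfrsf11a replaced Tnfsf9. In those 3 cell types same-numbered libraries did not all deviate together. No called member changed direction under any alternative. Uncalled log2 changes, these among them, changed sign as libraries were left out: in B cells Fas (-0.22 to 0.05), Ltb (-0.27 to 0.05) and Tnfrsf10b (-0.20 to 0.01), in macrophages Tnf (-0.48 to 0.11), Tnfsf14 (-0.31 to 0.54), Tnfrsf22 (-0.37 to 0.34) and Tnfrsf12a (-0.25 to 0.19), and in T cells Tnfrsf8 (-0.32 to 0.16), Tnfrsf9 (-0.10 to 0.12), Ltb (-0.01 to 0.14) and Tnfrsf13c (-0.67 to 0.15). Beside those given with the results, members that missed the threshold as reported and passed it without 1 library (edgeR, adjusted p) were Tnfrsf8 in B cells (-0.45, 0.0043 without KO replicate 3), Fas (0.32, 0.0025 without WT replicate 1) and Tnfsf4 (0.72, 0.0025 without WT replicate 2) in dendritic cells and Cd40lg in T cells (-0.33, 0.018 without WT replicate 3). Over all genes, calls without each library numbered 141 to 441 for B cells, 1176 to 2870 for dendritic cells, 0 to 2746 for macrophages and 32 to 598 for T cells (325, 2279, 95 and 223 as reported). They were 1260 in B cells and 265 in macrophages with the replicate block, 81, 1755 and 63 in B cells, macrophages and T cells in the fit of all 24 libraries, 547 in macrophages with DESeq2, and 501 in B cells and 478 in T cells with no filter. The scaling by library totals was chosen after seeing the data. Depth left 15 to 26 members per cell type too low to test.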
